A study of Mus musculus with 55 samples.

Results

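The axon guidance ligands and receptors are described here in mouse small cell lung cancer organoids with and without a guide against Kmt2c, which encodes a histone H3 lysine 4 methyltransferase. Members were chosen by gene symbol alone and were the semaphorins of classes 3 to 7, the plexins and neuropilins, the ephrins and their Eph receptors, the Slits and Robos, and the netrins with Dcc and the Unc5 receptors. The symbols matched 71 genes. Of these, 63 had a row among 15479 genes in the PRMK and PRM counts, and 60 were among the 13914 tested. In the sgMeis2 and sgScramble counts, 70 had a row among 51912 genes, and 58 were among the 16260 tested.

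PRMK cells carried guides against Trp53, Rb1 and Kmt2c with a Myc and luciferase vector, and PRM cells carried the same without the Kmt2c guide. The sgMeis2 group was PRMK with a guide against Meis2, a homeobox factor, and its control was PRMK with a scramble guide (sgScramble). Tumours grew in recipient mice after injection into the left lung, and organoids taken back from lung or liver were analysed. There were 3 libraries in each RNA group and 2 in each peak group. No label ties replicates to separate animals, and p-values then measure only the spread between these libraries, which may be technical. PRM RNA libraries are called 4, 5 and 6 after their columns, while the sample titles number them 3 to 5, so each column is tied to its group and not to a sample. For the PRMK RNA libraries the labels list no Kmt2c guide, although their names are PRMK. For the H3K4me2, H3K4me3 and KMT2C libraries of PRMK, replicate 1 also lists the Meis2 guide and replicate 2 the scramble guide. Kmt2c itself had 85.1, 84.4 and 105 CPM (read counts scaled to library size by the TMM method) in the PRMK libraries and 113, 187 and 67.6 CPM in the PRM libraries. The groups overlapped. Meis2 had 219, 224 and 137 CPM with its guide, against 259, 227 and 233 CPM with the scramble guide. Whole-gene RNA does not measure the edited site, and neither value checks the edit.

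Guidance cues are secreted or membrane proteins that turn growing axons and migrating cells towards or away from a source. Semaphorins signal through plexins, with neuropilins as co-receptors for most class 3 semaphorins. Ephrins signal through Eph receptor tyrosine kinases between touching cells, Slits through Robos, and netrins through Dcc and the Unc5 receptors. Outside the nervous system the same proteins act in vessel growth, in the branching lung and at epithelial boundaries. Small cell lung cancer is a neuroendocrine tumour and expresses many neuronal genes.

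Total counts ran from 12013253 to 24389041 per RNA library. The PRM libraries were less alike than the PRMK libraries: Pearson correlations of log2 CPM across genes were 0.937 to 0.971 between PRMK libraries and 0.778 to 0.863 between PRM libraries. Of 10 neuroendocrine markers, 8 had a row, and their summed level was 3600 to 5670 CPM in PRMK libraries and 5540, 2980 and 113 CPM in PRM libraries 4, 5 and 6. The level of 5 epithelial markers was 541 to 3010 CPM in PRMK libraries and 160, 50.3 and 2930 CPM in the same PRM libraries. The 6 immune markers with a row summed to 479 to 701 CPM in PRMK libraries and 3.98 to 504 CPM in PRM libraries, and the 8 fibroblast markers to 70.7 to 301 CPM in PRMK libraries and 3.08 to 345 CPM in PRM libraries. Myc, carried by the vector of every group, had 273, 312 and 205 CPM in PRMK and 1140, 2310 and 2060 CPM in PRM. The part of these differences in the results below was not tested. In bulk libraries, fewer cells of a type and less RNA per cell cannot be told apart. The labels name a strand-specific kit for PRM RNA but not for the other RNA groups. If the kits differed, kit and group cannot be told apart in PRMK against PRM.

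The promoters of 5 members carry the comparisons that follow. Nrp2 RNA was called by DESeq2 whichever single library was left out, Sema3e and Ephb2 were higher in PRMK by DESeq2, Unc5a had H3K4me2 over more of its body in PRMK, and Sema3g lost its H3K4me3 promoter peak. Each window below runs from 250 bases before to 50 bases after the gene start, on the strand of the gene, in RefSeq's GRCm38.p6. Capitals mark a match on either strand to CACGTG, an E-box bound by Myc with Max, or to TGACAG, the core bound by Meis factors.
Nrp2, chr1:62703067-62703366, plus strand: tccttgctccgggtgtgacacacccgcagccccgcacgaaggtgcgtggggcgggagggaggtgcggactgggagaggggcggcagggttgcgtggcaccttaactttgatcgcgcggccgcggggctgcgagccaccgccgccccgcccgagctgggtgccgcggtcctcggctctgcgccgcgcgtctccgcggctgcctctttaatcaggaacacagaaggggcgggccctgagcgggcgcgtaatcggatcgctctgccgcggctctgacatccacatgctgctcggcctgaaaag
Sema3e, chr5:14025026-14025325, plus strand: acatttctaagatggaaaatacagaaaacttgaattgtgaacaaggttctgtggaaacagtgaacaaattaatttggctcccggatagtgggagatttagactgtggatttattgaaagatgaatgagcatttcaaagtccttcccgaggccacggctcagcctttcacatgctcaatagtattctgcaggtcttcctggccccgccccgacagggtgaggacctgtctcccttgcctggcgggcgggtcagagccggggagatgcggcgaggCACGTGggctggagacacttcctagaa
Ephb2, chr4:136835963-136836262, minus strand: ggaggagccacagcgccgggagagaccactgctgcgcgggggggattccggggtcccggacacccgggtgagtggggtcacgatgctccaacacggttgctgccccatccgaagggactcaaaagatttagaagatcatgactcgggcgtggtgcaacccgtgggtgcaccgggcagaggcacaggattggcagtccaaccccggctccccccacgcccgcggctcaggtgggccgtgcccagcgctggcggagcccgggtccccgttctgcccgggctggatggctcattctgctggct
Unc5a, chr13:54949161-54949460, plus strand: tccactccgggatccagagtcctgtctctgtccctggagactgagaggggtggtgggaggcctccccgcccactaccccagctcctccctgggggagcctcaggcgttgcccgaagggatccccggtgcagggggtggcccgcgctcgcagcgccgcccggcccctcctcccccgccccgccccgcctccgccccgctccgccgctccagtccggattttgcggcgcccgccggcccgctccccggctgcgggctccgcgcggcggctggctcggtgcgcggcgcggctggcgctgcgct
Sema3g, chr14:31217623-31217922, plus strand: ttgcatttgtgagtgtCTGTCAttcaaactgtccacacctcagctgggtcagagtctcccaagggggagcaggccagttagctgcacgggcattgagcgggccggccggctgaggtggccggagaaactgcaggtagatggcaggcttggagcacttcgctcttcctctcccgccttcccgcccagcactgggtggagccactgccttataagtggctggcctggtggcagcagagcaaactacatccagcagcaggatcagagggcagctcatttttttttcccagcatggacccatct

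Nrp2 and Unc5a had 37 CpG dinucleotides each in these 300 bases, Ephb2 had 24, Sema3e 11 and Sema3g 8. The median was 22 over the 61 members with a promoter sequence and 13 over 17492 protein-coding genes. The Myc and Max E-box lay in 4 member promoters (Epha8, Robo2, Sema3e and Sema6d), or 6.56%, and in 7.91% of all promoters. The Meis core lay in 11.5% of member promoters and 18.7% of all. The letters of Nrp2, Ephb2 and Unc5a held neither motif in these windows.

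PRMK and PRM lung organoids were compared to see which guidance genes differ between these groups. Nrp2 RNA was 7.43-fold lower in PRMK on mean CPM, while Sema3e, Epha5, Ephb2 and Ephb3 were 9.63-, 7.06-, 3.63- and 2.92-fold higher. These genes were called by DESeq2 and not by the edgeR quasi-likelihood test, in which no gene of the genome passed an adjusted p of 0.05. The edgeR test called 0 of 60 members, against a background of 0.0% of 13914 genes, and its lowest adjusted p was 0.181 among members and 0.158 among all genes. At an unadjusted edgeR p under 0.05 there were 13 members, against 17.1% of all genes: 9 were higher in PRMK, against 7.03%, and 4 lower, against 10.1%. DESeq2, with Benjamini-Hochberg adjustment over the genes its default filters kept, called 7 members, against 8.75% of all genes tested. It called 4 members higher in PRMK against 3.9% of all genes, and 3 lower (Nrp2, Epha2 and Sema6a) against 4.86%. In the authors' deposited table, 6 members had an adjusted p under 0.05, against 6.42% of its 15479 genes. These were the 7 above without Ephb3, whose adjusted p there was 0.0708, and Ephb2 passed at 0.0463.

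Without a test, the groups did not overlap in 17 members, against 29.7% of all genes. The 3 PRMK libraries all lay above the 3 PRM libraries in 15 of 60 members, where the share of all genes was 15.1%, and all below in 2 members, Nrp2 and Efnb1, where it was 14.6%. The log2 fold change was above 0 in 38 members, against 48.6% of all genes. It was 1 or more in either direction in 26 members, against 24.3% of all genes. The median log2 fold change was 0.38 over the members and -0.02 over all genes tested. The spread within groups was also wider for the members: the median coefficient of variation was 36.4% in PRMK and 85.5% in PRM for members, and 14.6% in PRMK and 43.5% in PRM for all genes tested. The spread was not adjusted for level, and 63.3% of members had 1 CPM or more in all 6 libraries, against 77.4% of all genes tested. PRM library 6 was the lowest of the 6 libraries in 23 members (38.3%, against 29.3% of all genes), and PRM library 4 in 20 (33.3%, against 14.6%).

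**Figure D1:**
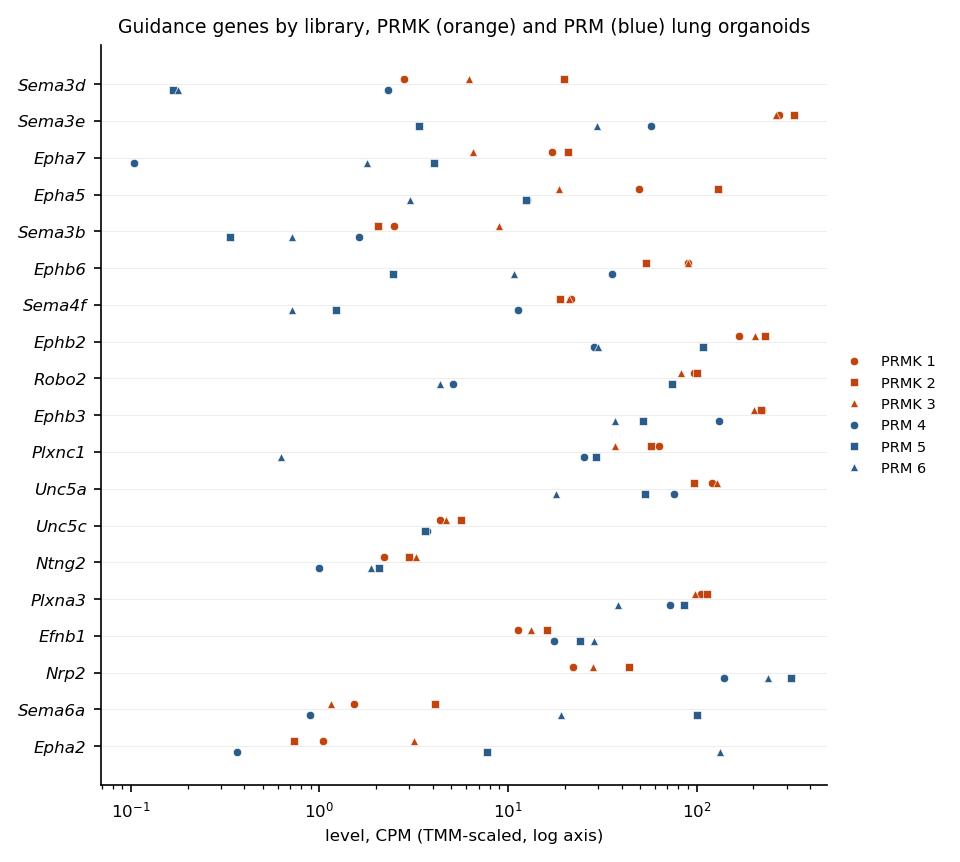
Level of 19 guidance genes in each library, in TMM-scaled CPM on a log axis, for the members whose PRMK and PRM libraries did not overlap or that DESeq2 called. Orange symbols are PRMK libraries, blue symbols are PRM libraries, genes are ordered by log2 fold change, and Unc5c in PRM library 6 is at 0 and not drawn. Nrp2 sits between 22.0 and 43.7 CPM in PRMK and between 140 and 318 CPM in PRM.

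Among the semaphorins, which are ligands, Sema3e rose by DESeq2 and Sema6a fell. Sema3e, a secreted repellent that binds Plxnd1, had 274, 327 and 264 CPM in PRMK libraries 1, 2 and 3, against 57.0, 3.36 and 29.5 CPM in PRM libraries 4, 5 and 6. All PRMK libraries were high and close together, and every PRM library was lower, over a wide range. On the log2 scale the difference was 3.27 ± 0.92 (SE, n = 3 per group), where edgeR gave an adjusted p of 0.210 and DESeq2 one of 0.00482. Without any single library it stayed between 2.74 and 4.07 in edgeR, and DESeq2 called it in 3 of 6 such fits. Sema6a, a transmembrane semaphorin, had 1.53, 4.12 and 1.15 CPM in PRMK libraries, against 0.889, 100 and 19.0 CPM in PRM libraries. The groups overlapped, with PRM library 4 the lowest of all. Its DESeq2 adjusted p was 0.0208, and the log2 fold change was -4.14 ± 1.55 by edgeR, with an adjusted p of 0.265. Without single libraries it ran from -4.89 to -2.12 in edgeR, -2.12 being the value without PRM library 5. DESeq2 called Sema6a in 3 of 6 such fits, with a highest adjusted p of 0.305.

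A further 3 semaphorins did not overlap between the groups. Sema3d, secreted like Sema3e, had 2.81, 19.9 and 6.18 CPM in PRMK, against 2.30, 0.168 and 0.178 CPM in PRM. Sema3b, also secreted and a binding partner of neuropilins, had 2.49, 2.04 and 8.91 CPM in PRMK, against 1.62, 0.336 and 0.712 CPM in PRM. Both were low genes, and the nearest libraries of the opposite groups differed little. Sema4f, a membrane-bound semaphorin, had 21.5, 18.8 and 21.1 CPM in PRMK and 11.3, 1.23 and 0.712 CPM in PRM. None of these 3 passed either test, with DESeq2 adjusted p of 0.0537, 0.102 and 0.153. Over all 20 semaphorins tested, 12 had a log2 fold change above 0 and the median was 0.01. Sema6b, after Sema3e the highest semaphorin per kb of exon over the 6 libraries, had 23.8, 30.3 and 18.9 CPM in PRMK and 44.1, 32.5 and 6.23 CPM in PRM, which overlapped.

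Among the receptors of semaphorins, the neuropilin Nrp2 fell and its relative Nrp1 did not pass a test. Nrp2, a co-receptor for class 3 semaphorins and for a lymphatic growth factor, had 22.0, 43.7 and 28.1 CPM in PRMK, against 140, 318 and 240 CPM in PRM. The highest PRMK library lay well under the lowest PRM library. The log2 fold change reached -2.89 ± 0.42, and edgeR gave an adjusted p of 0.181, the lowest of any member, where DESeq2 gave 9.2e-08. DESeq2 called it in 6 of 6 fits that left out 1 library, and the edgeR estimate stayed between -3.21 and -2.60. Nrp1 had 9.29, 14.9 and 15.7 CPM in PRMK and 11.2, 8.74 and 8.99 CPM in PRM, with a log2 fold change of 0.46 ± 0.36.

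The plexins held the most abundant of the members tested in this comparison, per kb of exon and in CPM. Plxnb2, a receptor of class 4 semaphorins, had 496, 530 and 561 CPM in PRMK and 477, 448 and 701 CPM in PRM. Per kb of exon this was 58.1 CPM in PRMK and 59.6 CPM in PRM, and the log2 fold change was -0.04 ± 0.24. The related Plxnb1 had 287, 168 and 403 CPM in PRMK and 221, 116 and 230 CPM in PRM, which overlapped. Plxnc1, the receptor of Sema7a, had 63.2, 57.3 and 36.7 CPM in PRMK and 25.2, 29.1 and 0.623 CPM in PRM. Its groups did not overlap, but its log2 fold change of 1.51 ± 1.09 was lower without PRM library 6, at 0.95. Plxna3, named here after its values were seen, had 106, 113 and 98.3 CPM in PRMK and 71.8, 85.2 and 38.5 CPM in PRM. Plxnd1, the receptor of Sema3e, had 29.7, 45.3 and 36.8 CPM in PRMK and 25.7, 87.7 and 72.3 CPM in PRM, a log2 fold change of -0.73 ± 0.47 that passed neither test.

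**Figure D2:**
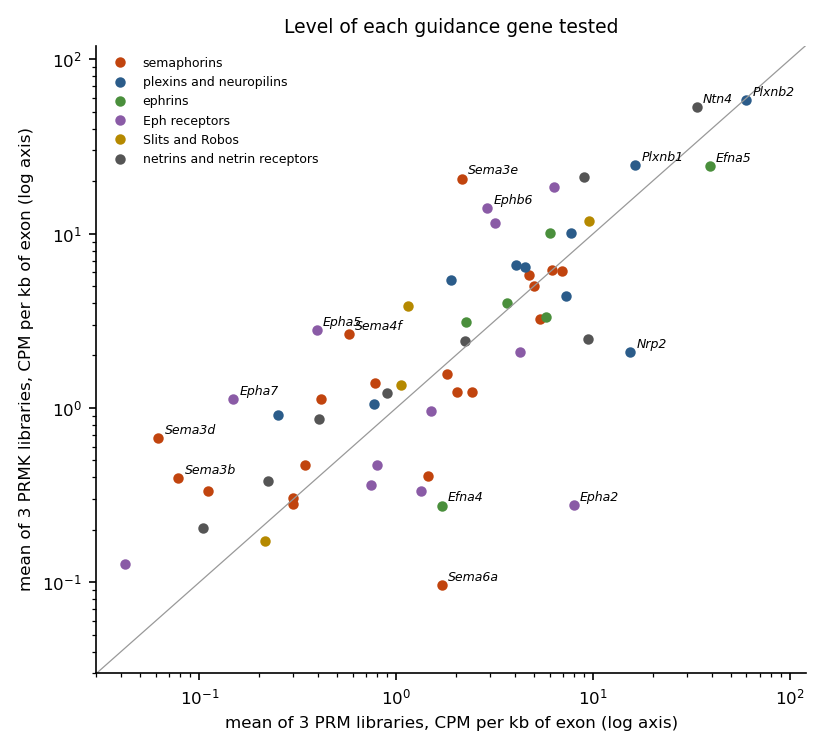
Mean level of each of the 60 members tested, in CPM per kb of exon on log axes, in 3 PRMK libraries (vertical) and 3 PRM libraries (horizontal), coloured by family, with the line of equal level. Plxnb2 and Ntn4 are the highest in PRMK, and Nrp2, Epha2 and Sema6a lie farthest below the line.

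Among the Eph receptors, Epha5, Ephb2 and Ephb3 rose by DESeq2 and Epha2 fell. Epha5, a receptor of A-type ephrins found mostly in neurons, had 49.5, 130 and 18.6 CPM in PRMK, against 12.6, 12.4 and 3.03 CPM in PRM. The log2 fold change was 2.82 ± 0.87 (edgeR adjusted p 0.226, DESeq2 adjusted p 0.0153). Ephb2, a receptor of B-type ephrins, had 168, 231 and 204 CPM in PRMK, against 28.6, 108 and 30.1 CPM in PRM. The log2 fold change was 1.86 ± 0.57 (edgeR adjusted p 0.224, DESeq2 adjusted p 0.0323). Ephb3, its close relative, had 221, 220 and 201 CPM in PRMK, against 131, 52.0 and 37.0 CPM in PRM, and a log2 fold change of 1.54 ± 0.48 (edgeR adjusted p 0.228, DESeq2 adjusted p 0.0452). In all 3 the PRM libraries were lower without overlap. DESeq2 called Epha5 in 4 of 6 fits that left out 1 library, and Ephb2 and Ephb3 in 2 of 6 each. The edgeR log2 fold change in such fits ran from 1.87 to 3.23 for Epha5, lowest without PRMK library 2. It ran from 1.51 to 2.78 for Ephb2, highest without PRM library 5, and from 1.23 to 2.22 for Ephb3, highest without PRM library 4.

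Epha2, an epithelial Eph receptor, had 1.05, 0.731 and 3.17 CPM in PRMK, against 0.366, 7.74 and 133 CPM in PRM. The groups overlapped, and PRM library 6 set the PRM mean. That library was low in neuroendocrine markers, and its epithelial markers summed to 2930 CPM, against 3010 CPM in PRMK library 3. A link of these markers to Epha2 was not tested. The log2 fold change of Epha2 was -4.82 ± 1.95 (edgeR adjusted p 0.285, DESeq2 adjusted p 0.0211), and without PRM library 6 it was -1.29. Ephb6, an Eph receptor that lacks kinase activity, had 90.0, 53.9 and 90.5 CPM in PRMK, against 35.4, 2.47 and 10.7 CPM in PRM. Epha7 had 17.2, 20.8 and 6.54 CPM in PRMK, against 0.104, 4.04 and 1.78 CPM in PRM. Neither of these last 2 overlapped or passed a test, with DESeq2 adjusted p of 0.0802 for Ephb6 and 0.0706 for Epha7. The 12 Eph receptors tested split into 6 above and 6 below a log2 fold change of 0.

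The ephrins, their ligands, gave no call by either tool. Efna5, the most abundant, had 107, 141 and 69.4 CPM in PRMK and 167, 298 and 40.7 CPM in PRM, a log2 fold change of -0.67 ± 0.68. Efnb1, a ligand of the Ephb receptors, had 11.3, 16.1 and 13.3 CPM in PRMK, all below 17.6, 24.1 and 28.7 CPM in PRM, with a log2 fold change of -0.79 ± 0.32 and a DESeq2 adjusted p of 0.124. Efna2 had 22.4, 26.7 and 15.3 CPM in PRMK and 14.4, 22.6 and 1.69 CPM in PRM. Of the 6 ephrins tested, 3 lay above and 3 below 0.

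In the Slit and Robo family, Robo2, a Slit receptor, had 97.1, 101 and 82.2 CPM in PRMK and 5.12, 74.0 and 4.36 CPM in PRM. The PRMK libraries were close together and PRM library 5 lay near them, so the log2 fold change of 1.74 ± 1.11 went to 4.3 without that library. Slit1, the most abundant ligand of the family, had 58.2, 195 and 28.4 CPM in PRMK and 70.3, 146 and 11.4 CPM in PRM. These values overlapped over a wide range in both groups. Robo1 is not analysed here in this comparison.

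Among the netrins and their receptors, Ntn4, a netrin of basement membranes, was the second most abundant member per kb in PRMK. It had 148, 168 and 359 CPM in PRMK and 369, 50.8 and 6.32 CPM in PRM, which overlapped, with a log2 fold change of 0.66 ± 1.24. Unc5a, a repulsive netrin receptor, had 120, 96.8 and 128 CPM in PRMK, all above 75.5, 53.5 and 17.9 CPM in PRM, with a log2 fold change of 1.23 ± 0.51 and a DESeq2 adjusted p of 0.152. Unc5c had 4.34, 5.64 and 4.67 CPM in PRMK and 3.71, 3.64 and 0 CPM in PRM, where the first 2 PRM libraries lay close to PRMK. Ntn1, the attractant bound by Dcc, had 16.3, 9.03 and 26.7 CPM in PRMK and 6.01, 40.4 and 152 CPM in PRM, highest in PRM library 6. Of 8 members of this family tested, 7 had a log2 fold change above 0, and none was called by either tool.

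**Figure D3:**
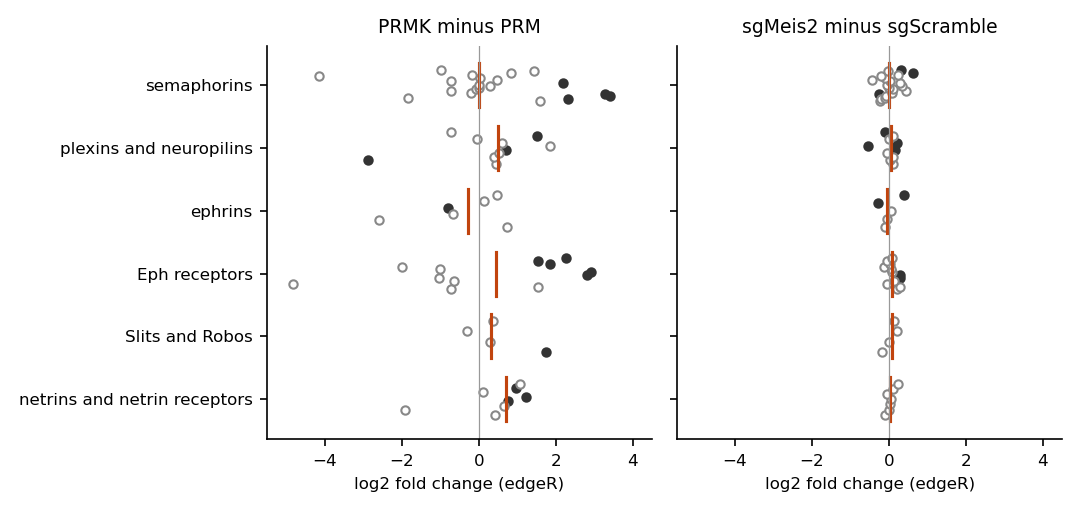
Log2 fold change (edgeR) of each member tested, by family, for PRMK minus PRM (left, 60 members) and sgMeis2 minus sgScramble (right, 58 members) on the same axis. Filled points are members whose libraries did not overlap between groups, open points are the others, and the orange bar is the family median. Values run from -4.82 to 3.41 on the left and from -0.53 to 0.62 on the right.

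The genes that act downstream or beside the members were examined as lists. Of 47 intracellular mediators tested, 23 had a log2 fold change above 0, 24 below, and the median was -0.03. DESeq2 called 3 of the 47, against 8.75% of all genes: 1 was higher in PRMK, Limk2, a kinase of cofilin, and 2 were lower, of which Abl2, a tyrosine kinase that acts on actin, is described here. Limk2 had 133, 120 and 162 CPM in PRMK and 97.2, 59.6 and 65.5 CPM in PRM. Abl2 had 76.2, 96.0 and 73.4 CPM in PRMK and 154, 182 and 148 CPM in PRM. Of 33 other cues and co-receptors tested, 20 lay above 0, with a median of 0.17, and DESeq2 called 2 of the 33: L1cam, an adhesion molecule of axons, was higher and Nrn1, a neuronal surface protein, lower. L1cam had 109, 72.4 and 109 CPM in PRMK and 47.5, 20.3 and 8.37 CPM in PRM. Nrn1 had 0.241, 0.104 and 0.0396 CPM in PRMK and 1.52, 29.0 and 28.7 CPM in PRM. The edgeR test called 0 genes of either list.

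Chromosomes 5 and 14 were chosen from these same data because PRM library 4 stood apart there. The change of their medians without that library is therefore not a test. Over all genes tested on these chromosomes the median log2 fold change was 0.23 with that library and -0.01 without it. For the 7 members there, Sema3e, Sema3d and Epha5 among them, it was 1.58 with and 1.04 without that library. The median of 1.58 was the value of Sema3a, in which library 4 was the lowest PRM library, at 0.418 CPM. In Sema3e, Sema3d and Epha5 library 4 was instead the highest PRM library, at 57.0, 2.30 and 12.6 CPM. For the 53 members elsewhere the median was 0.36 with and 0.22 without library 4. Without PRM library 4 the edgeR test called 796 genes and 3 members, Ephb3 and Sema4f higher and Nrp2 lower in PRMK.

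The second comparison tested the Meis2 guide within PRMK. No member was called by edgeR, against a background of 0.0% of 16260 genes, or by DESeq2, against 0.135%. At an unadjusted edgeR p under 0.05 there were 7 members, against 4.67% of all genes: 4 were higher with sgMeis2, against 2.2%, and 3 lower, against 2.47%. The libraries did not overlap in 11 of 58 members, against 16.0% of all genes. The sgMeis2 libraries lay above in 7 of them, against 8.12%, and below in 4, against 7.92%. The log2 fold change was above 0 in 35 members, against 50.8% of all genes, and was 1 or more in either direction in none, against 1.0%. The sgMeis2 library 3 stood apart from the others, with correlations of 0.968 to 0.972 against 0.991 to 0.995 among the other 5. Epithelial markers summed to 156 to 172 CPM with sgMeis2 and 199 to 215 CPM with sgScramble, and neuroendocrine markers to 2820 to 3150 CPM with sgMeis2 and 2960 to 3040 CPM with sgScramble, and their part in the results was not tested.

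Plxna4, a co-receptor of neuropilins for class 3 semaphorins, had 25.5, 24.1 and 19.0 CPM with sgMeis2, all below 33.9, 34.3 and 30.9 CPM with sgScramble. Its log2 fold change was -0.53 ± 0.13, the lowest of the members (edgeR adjusted p 0.754, DESeq2 adjusted p 0.215). Sema3e had 154, 153 and 168 CPM with sgMeis2, all below 199, 188 and 180 CPM with sgScramble, a log2 fold change of -0.26 ± 0.08. Without sgMeis2 library 3, edgeR called these 2 members, both lower with sgMeis2, among 46 genes.

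Sema6c had the highest log2 fold change, at 0.62 ± 0.21, with 21.0, 19.1 and 33.0 CPM with sgMeis2 and 15.3, 17.2 and 15 CPM with sgScramble. It was highest in sgMeis2 library 3, and the log2 fold change without that library was 0.33. Efnb2, the ephrin of arteries, had 77.6, 76.3 and 71.5 CPM with sgMeis2, all below 94.3, 93.4 and 83.8 CPM with sgScramble. Efnb3 had 12.2, 10.6 and 12.8 CPM with sgMeis2 and 8.05, 8.87 and 10.2 CPM with sgScramble, without overlap. Smaller differences without overlap were found for Epha5 at 0.29 ± 0.11, Epha7 at 0.28 ± 0.13, Plxnb1 at 0.21 ± 0.09, Plxna3 at 0.17 ± 0.07 and Sema7a at 0.32 ± 0.20, all higher with sgMeis2, and Plxnd1 at -0.11 ± 0.10.

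Robo1, a Slit receptor, was the most abundant member in these libraries, at 1060, 1050 and 745 CPM with sgMeis2 and 1060, 1090 and 1060 CPM with sgScramble. Per kb of exon it averaged 126 CPM with sgMeis2 and 141 CPM with sgScramble, and sgMeis2 library 3 was the low one. Plxnb2 came next, at 30.0 CPM per kb in both groups. Nrp2 had 18.9, 17.3 and 16.7 CPM with sgMeis2 and 17.2, 17.3 and 17.7 CPM with sgScramble, a log2 fold change of 0.02 ± 0.10. Ephb3 had 113, 108 and 122 CPM with sgMeis2 and 110, 114 and 112 CPM with sgScramble.

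Both comparisons tested 56 members in common, on libraries that are not shared. For 4 of them the groups did not overlap in the one comparison nor in the other. This is 25% of the 16 found in PRMK against PRM and 36.4% of the 11 found with the Meis2 guide. These 4 were 7.14% of the 56, against 4.9% of the 12885 genes tested in both. Epha5, Epha7 and Plxna3 lay above in both. Sema3e lay above in PRMK against PRM, at a log2 fold change of 3.27, and below with the Meis2 guide, at -0.26. Of the 46 mediators and 33 other cues tested with the Meis2 guide, neither tool called any.

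Peaks of histone marks, of KMT2C and of open chromatin were placed on the members in GRCm38. H3K4me3 marks active starts, H3K4me2 starts and enhancers, and H3K4me1 mostly enhancers, and KMT2C writes H3K4me1. A promoter was 1 kb either side of the outer start of the gene and could be placed for 61 members, and gene bodies for 71. In 11 members, Unc5a, Ephb6, Plxnb2 and Slit2 among them, that outer start lay more than 1 kb from the nearest start in the RefSeq promoter table, so the promoters were also counted around the starts of that table, an alternative chosen after seeing the data. A peak was called gained where both libraries of the first group and neither of the second had one, lost in the reverse case, and kept where all 4 did. With 2 libraries a group, the smallest exact two-sided permutation p is 0.333, so counts are given without a test. Members are long genes, with a median length of 53.4 kb against 17.3 kb for all protein-coding genes, and counts over bodies were not adjusted for length.

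The H3K4me3 promoter peak was kept in 43 of 61 members (70.5%, against 53.5% of all genes). Among them were Nrp2, Sema3e, Epha5, Ephb2 and Ephb3, whose RNA was called by DESeq2 and, with all libraries, not by edgeR. The peak was gained in 0 members, against 0.359% of all genes. Sema3g, a secreted semaphorin of vessels, was the 1 member to lose it, against 0.643% of all genes: the peak covered 0 and 0 bp of the promoter in PRMK, against 1646 and 1902 bp in PRM. Sema3g RNA was 17, 17.2 and 9.63 CPM in PRMK and 30.5, 41.9 and 0.356 CPM in PRM, which overlapped. Around the starts of the promoter table the peak was kept in 46 members (75.4%, against 55.8% of all genes), lost again in Sema3g alone (against 0.672%), and gained in Sema3a (against 0.33%), a secreted repellent, where it reached only 2 and 95 bp of the window in PRMK. The 11 members with no peak at the outer start in any library had a median level, over the 7 with an RNA row, of 3.29 CPM in PRMK and 2.02 CPM in PRM. Robo2 was the highest of them, at 93.4 ± 9.9 CPM in PRMK and 27.8 ± 40.0 CPM in PRM (SD, n = 3 each), and did have the peak in all 4 libraries at a start of the promoter table. So did Ntng1, whose RNA was at 0.412 CPM in PRMK and 0.0942 CPM in PRM. Epha6 had the peak at such a start in PRM library 2 only, and Sema3a in PRMK only, as given above. The 41 members with RNA and a peak in all 4 libraries had a median of 23.7 CPM in PRMK and 19.8 CPM in PRM.

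H3K4me2 promoter peaks were kept in 42 members, against 52.6% of all genes, lost in 0, against 0.208%, and gained in 2, Ephb4 and Unc5a, against 1.92%. At Unc5a the peak covered 2001 and 2001 bp around the outer start in PRMK, against 0 and 0 bp in PRM. That start lies 4260 bases from the one whose sequence is printed above, where the mark covered 2001 bp in all 4 libraries. Over the whole Unc5a body H3K4me2 covered 34.5% and 25.5% in PRMK, against 16.7% and 16.2% in PRM, and its RNA was higher in all PRMK libraries. At Ephb4, an ephrin receptor of veins, the H3K4me2 peak covered 2001 and 2001 bp in PRMK and 0 and 0 bp in PRM. The gain was counted around both starts, but these lie within 1 kb of each other and their windows overlap. Around its start in the promoter table the H3K4me3 peak covered 0 and 0 bp in PRMK, against 0 and 1258 bp in PRM. Ephb4 RNA is not analysed here in this comparison, and it was under 1 CPM in every sgMeis2 and sgScramble library.

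**Figure D4:**
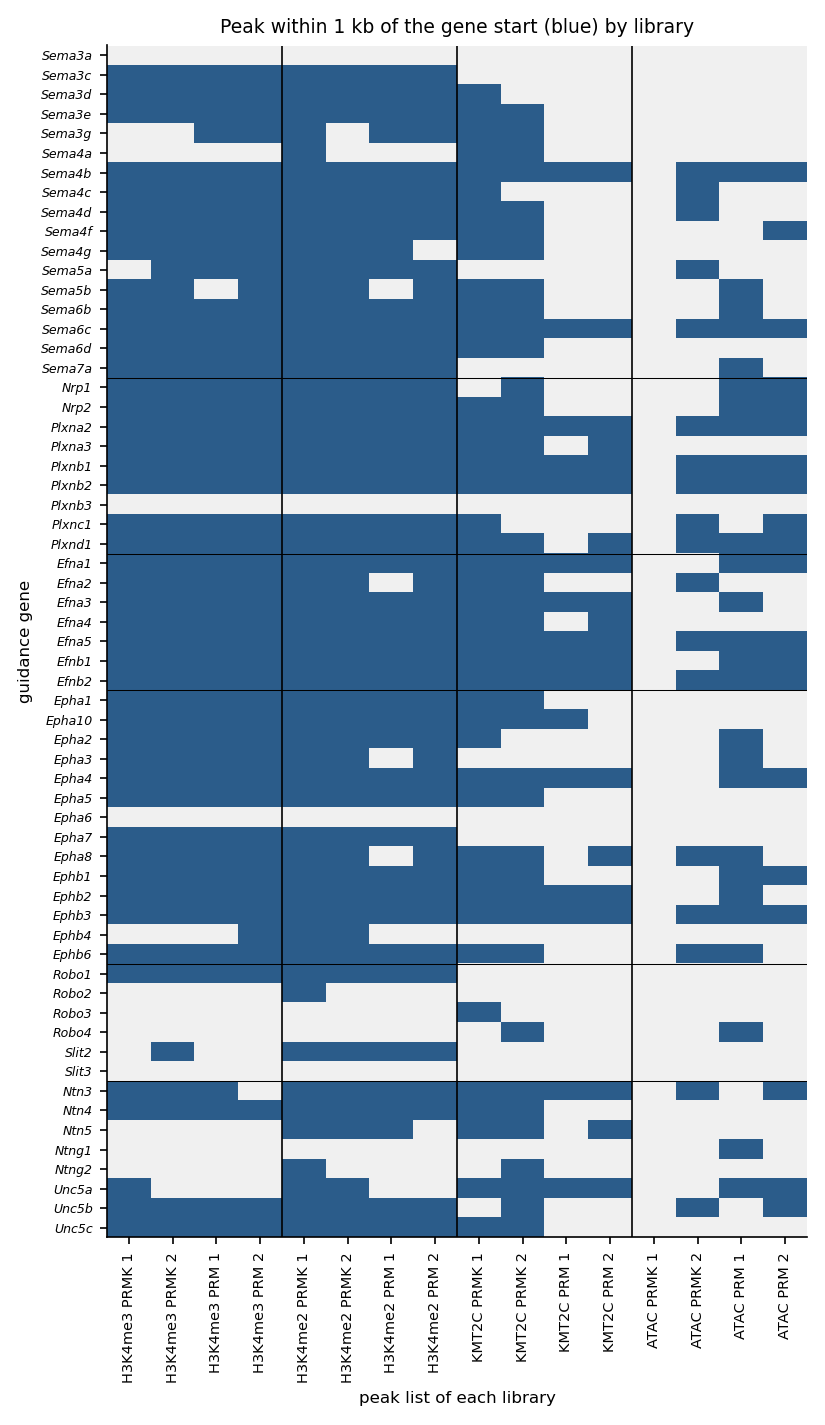
Presence of a peak within 1 kb of the gene start for 61 members (rows, by family) in each lung library (columns: H3K4me3, H3K4me2, KMT2C and ATAC, PRMK before PRM). Blue cells have a peak. H3K4me3 is kept in 43 members and lost in Sema3g alone, and the column of ATAC PRMK replicate 1, whose list held 593 peaks, is empty.

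H3K4me1 peaks over gene bodies were kept in 43 of 71 members (60.6%, against 23.0% of all genes), gained in 7 (against 6.57%) and lost in 6 (against 3.05%). Gained were Efnb3, Ephb6, Ntn5, Sema3d, Sema4a, Sema4g and Sema7a, and lost were Epha3, Epha6, Ntng1, Sema4f, Sema5a and Slit2. Peaks covered 10.5% and 5.78% of the summed member bodies in PRMK libraries 1 and 2, against 11.3% and 10.5% in PRM. Over all genes the share was 9.96% and 5.4% in PRMK, against 8.02% and 7.21% in PRM.

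Ephb6 had the clearest gain. H3K4me1 peaks covered 75.4% and 59.3% of its body in PRMK, against 0 and 0% in PRM, and its RNA libraries did not overlap. Sema3d gained peaks over 1.78% and 0.524% of its body in PRMK, with 0 and 0% in PRM. At Sema3e, which had peaks in all 4, they covered 17.2% and 6.71% in PRMK, against 0.71% and 1.6% in PRM. At Nrp2 they covered 31.0% and 14.3% in PRMK, against 39.4% and 38.3% in PRM. At Ephb2 they covered 53.9% and 36.7% in PRMK and 63.1% and 58.6% in PRM, the opposite order to its RNA. Sema4f lost its peaks, with 0 and 0% in PRMK against 9.05% and 5.39% in PRM, while its RNA lay higher in all PRMK libraries.

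KMT2C peaks over gene bodies were gained in 27 members, against 31.4% of all genes, lost in 0, against 0.0231%, and kept in 31, against 26.2%. The lists held 187682 and 134561 peaks in PRMK, against 9949 and 16681 in PRM. PRMK, the group with the Kmt2c guide, had the longer lists, and list length and group cannot be told apart in these counts. With the same number of peaks taken from each library, 5 members gained a peak (7.04%, against 3.13% of all genes) and 5 lost one (7.04%, against 3.55%). At Nrp2, 17 and 11 KMT2C peaks lay over the body in PRMK and 2 and 4 in PRM. At Sema3e there were 11 and 10 in PRMK and 0 and 0 in PRM.

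The ATAC lists were uneven, at 593 and 54201 peaks in PRMK and 64596 and 19834 in PRM, and their part in the counts cannot be told apart from the group. Gene bodies lost a peak in Efna1, Efna3, Efnb1 and Efnb3, against 3.6% of all genes, gained one in 0, against 0.0185%, and kept one in 1, against 1.4%. Promoters lost a peak in 7 of 61 members (11.5%, against 4.93% of all genes): Efna1, Efnb1, Epha4, Ephb1, Nrp1, Nrp2 and Unc5a. At the promoter of Nrp2 the open blocks covered 0 and 0 bp in PRMK, against 1077 and 1114 bp in PRM. Around the outer start of Unc5a, where H3K4me2 was gained, they covered 0 and 0 bp in PRMK, against 870 and 480 bp in PRM. PRMK replicate 1 had a promoter peak in 0 of 61 members, so on the PRMK side each loss rests on replicate 2. PRMK replicate 2, whose list was the longer, still had 4 blocks over the Nrp2 body.

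Liver and lung PRM organoids were compared for H3K4me1, KMT2C and open chromatin. H3K4me1 body peaks were gained in liver in 2 members, Ntng2 and Unc5d, against 1.3% of all genes, lost in 0, against 0.231%, and kept in 48, against 27.7%. They covered 10.1% and 13.1% of the summed member bodies in liver, against 11.3% and 10.5% in lung. KMT2C body peaks were gained in 19 members in liver, against 21.9% of all genes, lost in 0, against 0.0462%, and kept in 30, against 26.3%, with lists of 65201 and 113129 peaks in liver and 9949 and 16681 in lung. At Ephb2, KMT2C peaks covered 31.7% and 44.9% of the body in liver, against 9.34% and 12.1% in lung. At Nrp2 they covered 23.5% and 21.2% in liver, against 3.43% and 4.6% in lung. The liver ATAC lists held 345 and 141 peaks, and 34 members lost a body peak there, against 36.5% of all genes, with 0 gained or kept, against 0.0% and 0.0601%. The short lists and the site cannot be told apart.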

How the data were processed

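RNA, CUT&Tag and ATAC libraries of mouse organoids were analysed: 12 RNA and 26 peak libraries of a series of 55 samples. Members, gene lists and alternatives were chosen with earlier results of these data known. Per the submitters' processing notes, the authors aligned RNA with STAR 2.6.0a to GRCm38, used DESeq2, and aligned the other reads with Bowtie2 (2.2.1 for ATAC) to mm10; CUT&Tag peaks came from SEACR. No source used here names the ATAC caller. The authors deposited raw counts per gene, used here for all tests. Deposited TPM values of the Meis2 table set only the exon length used for CPM per kb; 6 columns of the other table, named TPM but on a log2 scale, were not used. The deposited log2 fold changes and p-values are the authors' own. Deposited SEACR signal and ATAC score columns only ranked peaks within a list.

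Counts were tested in R 4.3.3 with edgeR 4.0.16 (quasi-likelihood, TMM, its filter on low counts), with DESeq2 1.42.0 as an alternative. Benjamini-Hochberg adjustment at 0.05 ran over all genes tested in edgeR. In DESeq2 it ran over those of them that its default filters kept. SE is the log2 fold change over the root of F. Totals of 12013253 to 24389041 counts set the precision. The fit was tested on simulated data, with a spread that followed expression level only and changes given to genes of 1 CPM or more. The wider spread of the members in PRMK and PRM was not simulated. The shares recovered are therefore not those of the members. For PRMK against PRM, edgeR recovered 1.47%, 36.4% and 75.8% of simulated log2 changes of 1, 2 and 3. For sgMeis2 against sgScramble it recovered 83.8%, 100% and 100%. Peaks counted with 1 bp of overlap; for ATAC the open block of each listed peak was used. Gene coordinates are from RefSeq GRCm38.p6, and 10 members without a strand there were left out of promoter counts. Named genes were those called by edgeR or DESeq2, up to 15 without overlap and a mean of 1 CPM or more, the top 2 per family by level per kb, members with a peak gained or lost, the drivers, and up to 5 called genes of each pathway list, of which 1 mediator called lower in PRMK by DESeq2 is left out. Bisulfite, single-cell, S-adenosylmethionine and IgG samples were not analysed here. A motif and that mediator are not reported here.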

Additional observations from a re-analysis of the deposited data

How the results depend on the processing

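With 3 libraries a group, and PRM libraries that differ widely, the number of members called depended on the tool and on single libraries, and the cause was not tested. For PRMK against PRM, 0 members were called by edgeR, 7 by DESeq2 and 3 by the edgeR likelihood ratio test, 0 to 3 by edgeR and 1 to 20 by DESeq2 without single libraries. The same counts over all genes were 0, 1218 and 454, then 0 to 796 by edgeR. By DESeq2 without single libraries they were 215, 498 and 352 without PRMK libraries 1, 2 and 3, and 4060, 1449 and 2165 without PRM libraries 4, 5 and 6. Members without overlap numbered 17, and 19 to 29 without single libraries, while the share of all genes, 29.7%, was 31.7% to 50.6% without them: fewer libraries separate more readily. For sgMeis2 against sgScramble, 0 members were called by edgeR, DESeq2 or the likelihood ratio test, and 0 to 2 by either tool without single libraries. Over all genes these counts were 0, 22 and 31, then 0 to 46 by edgeR and 0 to 72 by DESeq2. Members without overlap numbered 11, and 15 to 19 without single libraries, against 16.0% of all genes, and 23.0% to 29.1% without them.

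No paired analysis was possible for PRMK and PRM because their columns share no replicate numbers (PRMK 1 to 3, PRM 4 to 6) and the PRM columns could not be matched to the replicate numbers in the titles (3 to 5). For sgMeis2 and sgScramble, same-numbered libraries did not deviate together (r = 0.009, -0.005 and 0.027), and a fit with the replicate block called 0 members and 0 genes.

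Reversed log2 fold changes were small or from wide groups. In PRMK against PRM without single libraries they ranged by edgeR from -0.80 to 1.20 for Slit1, -1.13 to 0.03 for Efna5, -0.17 to 0.20 for Plxnb2 and -0.65 to 0.30 for Sema6b, and by DESeq2 from -0.81 to 1.20 for Slit1, -1.14 to 0.03 for Efna5, -0.18 to 0.19 for Plxnb2 and -0.66 to 0.32 for Sema6b. In sgMeis2 against sgScramble they ranged from -0.22 to 0.05 for Ephb2, -0.03 to 0.07 for Ephb3, -0.09 to 0.02 for Efna5, -0.03 to 0.03 for Ntn1, -0.01 to 0.16 for Unc5a and -0.03 to 0.05 for Plxnb2. By edgeR without sgMeis2 3, Ephb2 and Plxnb2 were each 0.04, and by DESeq2 without sgScramble 3, Ntn1 was 0.01. Ntn1 was 0.00 by DESeq2 and with RLE size factors, and Plxnb2 was -0.01 with no filter on low counts and -0.00 with the replicate block.

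Peak counts depended on list length. With equal numbers of peaks, H3K4me3 promoters gained were 1, against 0.764% of all genes. H3K4me2 promoters gained were 1, against 1.3%, and lost 2, against 0.7%. H3K4me1 bodies gained were 4, against 4.79%. KMT2C bodies gained were 5, against 3.13%, and lost 5, against 3.55%. ATAC bodies lost were 0, against 0.522%. In liver PRM against lung PRM, also with equal numbers, 1 body was gained for H3K4me1, against 0.883% of all genes. For KMT2C 1 was gained, against 2.09%, and 2 lost, against 1.95%, and for ATAC 0 were lost, against 0.25%. With windows of 2 kb, H3K4me2 promoters gained were 1. With windows at either gene end, H3K4me3 promoters lost were 3 and H3K4me2 promoters lost 1. Around the starts of the RefSeq promoter table, H3K4me3 promoters gained were 1, against 0.33% of all genes, and H3K4me2 promoters gained 1, against 1.84%. With 10 kb added, liver H3K4me1 bodies gained were 1. Without any single library, H3K4me3 promoters gained were 1, and those lost ranged from 1 to 2, and H3K4me2 promoters gained from 2 to 6 and lost from 0 to 1. H3K4me1 bodies gained ranged from 7 to 9 and lost from 6 to 8, KMT2C bodies gained from 27 to 34, and ATAC bodies gained from 0 to 5 and lost from 4 to 34. In liver PRM against lung PRM, H3K4me1 gained ranged from 2 to 3 and lost from 0 to 2, KMT2C gained from 19 to 26 and lost from 0 to 1, and ATAC lost from 34 to 54. The share of all genes was counted for equal numbers of peaks and the promoter table only. The other counts stand without it and do not set the members apart.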
